A study of Mus musculus with 6 samples.

Results

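Protocadherin genes were taken as every row of the authors' normalized table whose gene name begins with Pcdh, which gave 34 of 18065 genes. They fell into 1 row for the alpha cluster, 20 for the beta cluster, 1 for the gamma cluster and 12 for genes outside the clusters. The raw table held 37 such names, and the 3 left out of the normalized table were Pcdhb1, with 0 reads in every library, Pcdhb13, with 0 to 9 reads, and a second Pcdh15 row with 0 reads. RNA came from tdTomato-positive cells sorted from the mouse telencephalon at E11.5 (embryonic day). All 6 samples shared the C57BL/6 strain and the alleles Nkx2.1-Cre and ROSAloxSTOPloxTdTomato, a reporter that Cre recombinase switches on in cells with a history of Nkx2-1 expression, those of the medial ganglionic eminence (MGE) among them. The 2 heterozygous samples carried Magoh lox/+ in addition, so that Cre could remove a copy of Magoh, an exon junction complex protein, in the same cells, and the 4 controls lacked the floxed allele. The labels do not say whether samples came from separate embryos, so p-values measure the spread between these samples, which may in part be technical. Xist and Y-linked reads, given below, differed between heterozygous libraries 1 and 2, and between control 2 and the remaining controls. Those libraries were therefore not repeats of a single sample.

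Protocadherins are cadherin-type adhesion proteins of the neuronal surface. The alpha, beta and gamma genes lie side by side on a single chromosome, and each neuron switches on a small, partly random set of them from alternative promoters, which gives it a surface identity used in self-avoidance, synapse formation and neuronal survival. In MGE-derived cortical interneurons the gamma cluster is known to be needed for survival after birth. The non-clustered protocadherins each have a promoter of their own. Those of the delta group among them mark brain regions and nuclei, and act in cell sorting, migration and axon growth.

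Heterozygous libraries 1 and 2 held 41951182 and 49189360 counted reads, against 37429290 to 44198702 in controls. Levels are given as CPM, reads relative to library size after TMM scaling. Magoh stood at 57.1 and 48.5 CPM in heterozygous libraries 1 and 2, against 63.6 to 118 CPM in controls, a log2 fold change of -0.62 ± 0.27 (SE; edgeR, adjusted p = 0.85). Heterozygous library 1 and control 2 had 0 reads from 4 Y-linked genes and 111 and 94.2 CPM of Xist, while 3453 to 4291 Y-linked reads were counted in each remaining library. Heterozygous library 1 and control 2 were also lowest in long relative to short transcripts (median deviation of genes of at least 8000 exon bases minus that of genes under 1000, in log2 units, of -0.32 and -0.75, against 0.12 to 0.38 elsewhere). Differences were for this reason also taken within these sets, for heterozygous library 1 against control 2, and for heterozygous library 2 against controls 1, 3 and 4. Of the MGE markers, Nkx2-1 stood at 349 and 466 CPM in heterozygous libraries 1 and 2, against 339 to 561 CPM in controls. Heterozygous library 2 stood apart for others, with Lhx6, of postmitotic MGE neurons, at 70.8 and 243 CPM in heterozygous libraries 1 and 2, against 51.3 to 110 CPM in controls. The 6 MGE markers summed to 1248 and 2117 CPM in heterozygous libraries 1 and 2, against 824 to 1503 CPM in controls.

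The alpha and gamma clusters could not be resolved into their members. The annotation GENCODE M21 (build GRCm38) names 14 alpha genes between 36930184 and 37187661 of chromosome 18 and 22 gamma genes between 37661793 and 37841873, all on the plus strand, but the raw table held 1 row for each cluster, named Pcdhac1 and Pcdhgc4. The Ensembl ID of the row named Pcdhac1 belongs to Pcdha11 in GENCODE M21. The sources used here do not say which exons were counted into these rows, so each is described as the cluster's row and not as the C-type isoform of its name, and neither is set per length. The 22 beta genes, each with a row of its own, lie between 37264938 and 37524479. The reads of all Pcdh rows were divided unequally, with 55.4 to 59.9% in the gamma row, 34.5 to 38.1% in the non-clustered genes, 2.31 to 6.11% in the beta genes and 1.80 to 3.76% in the alpha row, over the 6 libraries.

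No protocadherin gene passed the test between genotypes. All 34 rows passed the filter on low counts, and edgeR's quasi-likelihood test called 0 of 34, as it did 0 of 16495 genes over the table (0.0%). DESeq2 also called 0 of the 34, where it called 0.455% of all genes, and limma-voom called 0 (0.0% of all genes). At an unadjusted p under 0.05, edgeR had 5 members higher in heterozygous cells (1.75% of all genes) and 0 lower (3.98% of all genes), with 5.72% of all genes being past it in either direction. The 5 were the alpha row, Pcdhb2, Pcdhb3, Pcdhb17 and Pcdhb22.

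The alpha row stood above every control in heterozygous libraries 1 and 2 alike. It held 30.4 and 26.7 CPM in heterozygous libraries 1 and 2, against 22.9, 16.9, 14.2 and 14.9 CPM in controls 1 to 4. The groups did not overlap, and control 1 lay nearest to the heterozygous libraries. The means were 28.5 ± 2.63 CPM in heterozygous cells (SD, n = 2) and 17.2 ± 3.96 CPM in controls (SD, n = 4). Pcdhac1 thus had a log2 fold change of 0.73 ± 0.23 (SE), which did not pass (edgeR, unadjusted p = 0.0128, adjusted p = 0.793; DESeq2, adjusted p = 0.286). It was 0.85 for heterozygous library 1 against control 2, and 0.66 for heterozygous library 2 against controls 1, 3 and 4, on the log2 CPM scale. With the code number of the sample names as a block, chosen after seeing the data, it was 0.22 ± 0.64 (SE).

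The gamma row, the most abundant of the family, overlapped between the groups. It held 448 and 571 CPM in heterozygous libraries 1 and 2, against 526, 393, 469 and 495 CPM in controls 1 to 4. Heterozygous library 2 was the highest of the 6 and control 2 the lowest. The log2 fold change of Pcdhgc4 was 0.11 ± 0.19 (SE; edgeR, adjusted p = 0.999), and it turned to -0.076 without heterozygous library 2.

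**Figure D1:**
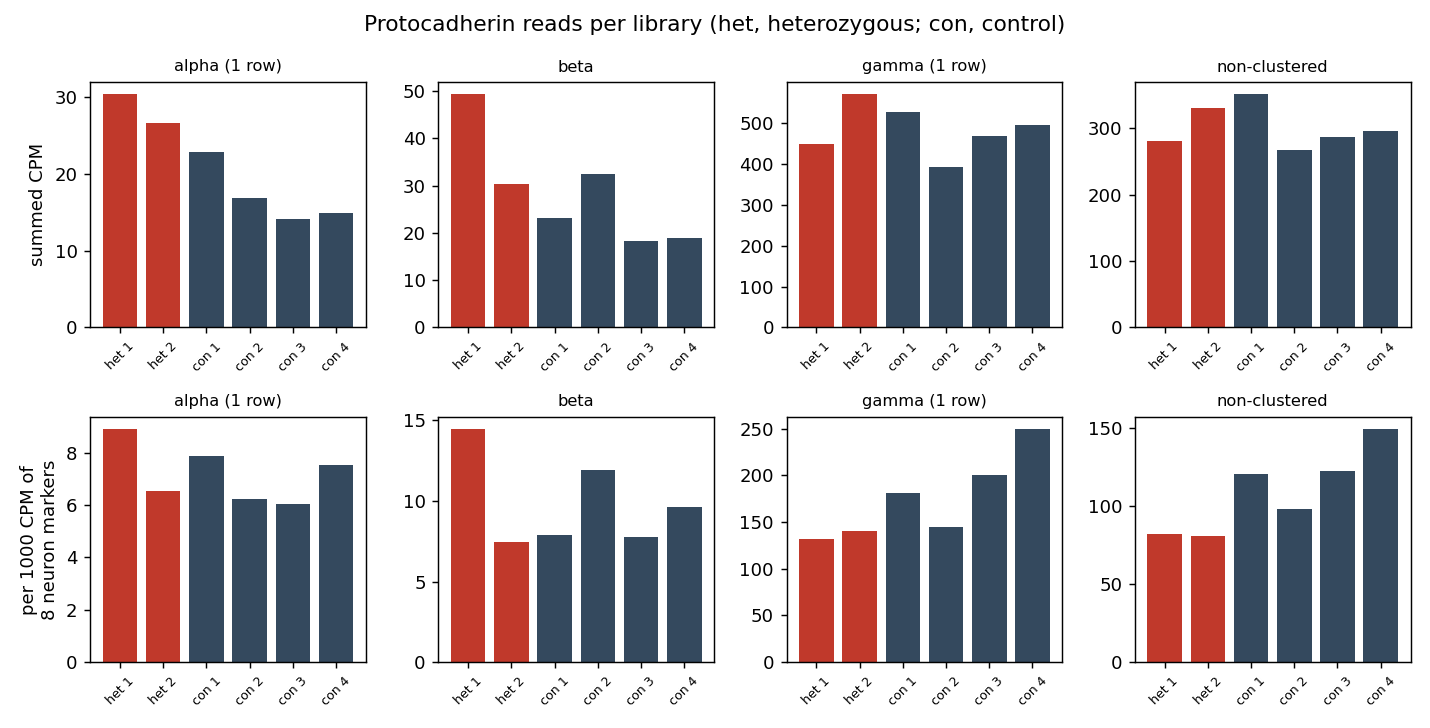
Summed protocadherin level in each library, for the alpha row, the beta genes, the gamma row and the non-clustered genes, heterozygous libraries in red and controls in dark blue. The upper row is in CPM and the lower row is relative to 1000 CPM of 8 neuron markers in the same library; the heterozygous libraries are above all controls for alpha in the upper row and overlap them in the lower row.

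Beta genes were for the most part higher in heterozygous cells, without a member that passed the test. The log2 fold change was positive in 15 of 20, and the median was 0.70 (range -1.17 to 1.51), where 46.1% of all tested genes were above 0 and their median was -0.03. Both heterozygous libraries lay above all 4 controls for 8 of 20 (6.17% of all genes, and 6.39% of genes with a mean of 0.5 to 5 CPM), and below all controls for 2 of 20 (8.14% of all genes). The beta genes share libraries, and as recent duplicates they share stretches of sequence, so these counts are not independent of each other, and reads cannot be assigned to a single copy with certainty. The 8 were Pcdhb2, Pcdhb3, Pcdhb7, Pcdhb16, Pcdhb17, Pcdhb18, Pcdhb21 and Pcdhb22. Pcdhb14 and Pcdhb15, named after their values were seen, were the 2 below, at 0.33 and 0.366 CPM and 0.165 and 0.183 CPM in heterozygous libraries 1 and 2, against 0.376 to 0.604 CPM and 0.224 to 0.59 CPM in controls.

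Summed over the 22 beta rows of the raw table, beta reads did not separate the genotypes. The sum was 49.4 and 30.3 CPM in heterozygous libraries 1 and 2, against 23.1, 32.4, 18.2 and 19.0 CPM in controls 1 to 4. Heterozygous library 1 was the highest, but control 2 lay above heterozygous library 2. The mean was 1.72 times higher in heterozygous cells, 1.53 times for heterozygous library 1 against control 2, and 1.51 times for heterozygous library 2 against controls 1, 3 and 4. Of the 20 genes, 11 were highest in heterozygous library 1, 6 in control 2 and 0 in heterozygous library 2. The median log2 fold change was 0.15 without heterozygous library 1 and 1.01 without heterozygous library 2. It was 0.072 with the code number as a block, a fit that sets heterozygous library 2 against control 1, the only pair with a shared code.

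Markers of neurons, as a sum, were also higher in both heterozygous libraries. The summed level of 8 neuron markers was 3411 and 4077 CPM in heterozygous libraries 1 and 2, against 1981 to 2913 CPM in controls. Of the 8, 6 lay above all controls in both heterozygous libraries (6.17% of all genes). Elavl3 and Map2 did not, with heterozygous library 1 at 149 and 438 CPM, within the controls at 84.4 to 299 and 311 to 524 CPM. Among the libraries the beta sum had another order, being higher in heterozygous library 1 than in library 2 and second highest in control 2, where the neuron markers summed to 2719 CPM. Tubb3, a neuronal tubulin and the most abundant of the 8, stood at 1883 and 2008 CPM in heterozygous libraries 1 and 2, against 994 to 1554 CPM in controls. The markers of progenitors summed to 2886 and 3359 CPM in heterozygous libraries 1 and 2, against 2879 to 4223 CPM in controls. Relative to 1000 CPM of the neuron markers, a scaling chosen after seeing the data, the alpha row stood at 8.91 and 6.54 in heterozygous libraries 1 and 2, against 6.05 to 7.86 in controls. On the same scale the beta sum stood at 14.5 and 7.44 in heterozygous libraries, against 7.78 to 11.9 in controls. For alpha and beta the groups overlapped on that scale, with heterozygous library 1 the highest in each. The gamma row, on this scale, stood at 131 and 140 in heterozygous libraries, against 145 to 250 in controls, and the non-clustered sum at 82.4 and 81.1 in heterozygous libraries, against 98.3 to 149.8 in controls. Both were below every control on this scale, while before scaling both overlapped the controls. The divisor itself lay above every control, so these ratios cannot tell a lower level of the genes from a higher level of the markers. The part of the neuron markers in these differences was not tested, and in bulk samples fewer cells of a type and less RNA per cell cannot be told apart.

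**Figure D2:**
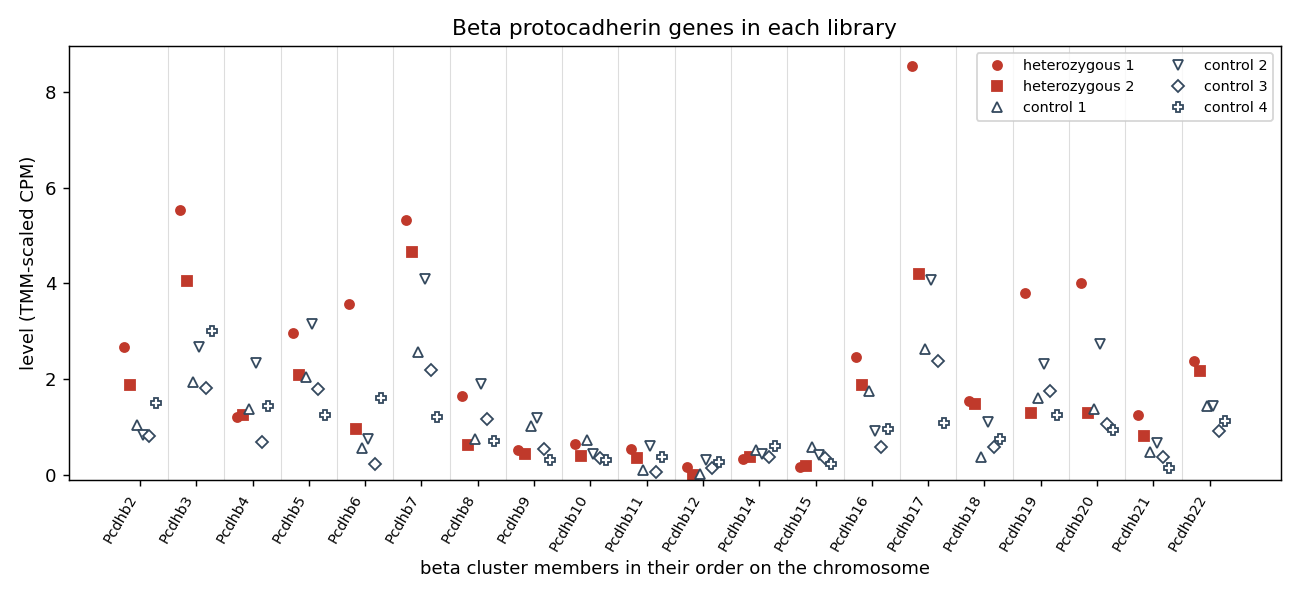
Level of each beta gene in CPM (vertical axis), in the order of the genes on the chromosome, with filled red symbols for the 2 heterozygous libraries and open symbols for the 4 controls. Pcdhb17 reaches 8.53 CPM in heterozygous library 1, and the members from Pcdhb9 to Pcdhb15 stay at or under 1.20 CPM in every library.

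Pcdhb17 had the highest mean CPM of the beta genes over the 6 libraries, through heterozygous library 1, while per kilobase Pcdhb7 was higher. Pcdhb17 stood at 8.53 and 4.19 CPM in heterozygous libraries 1 and 2, against 2.63, 4.06, 2.39 and 1.07 CPM in controls 1 to 4, from 362 and 206 reads against 48 to 146. Heterozygous library 2 was only just above control 2. Pcdhb17 had a log2 fold change of 1.33 ± 0.50 (SE; edgeR, adjusted p = 0.85), and it ran from 0.74 to 1.75 over 15 alternatives.

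Pcdhb3 had the smallest p of the cluster. It stood at 5.54 and 4.05 CPM in heterozygous libraries 1 and 2, against 1.93, 2.67, 1.81 and 2.998 CPM in controls 1 to 4, and the groups stood clearly apart. Pcdhb3 had a log2 fold change of 1.03 ± 0.33 (SE; edgeR, unadjusted p = 0.0143, adjusted p = 0.793).

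Pcdhb7 stood at 5.33 and 4.66 CPM in heterozygous libraries 1 and 2, against 2.57, 4.09, 2.19 and 1.21 CPM in controls 1 to 4. Its log2 fold change was 0.99 ± 0.44 (SE; edgeR, adjusted p = 0.85). Of the 4 most abundant beta genes Pcdhb5 was the one whose groups overlapped, at 2.97 and 2.09 CPM in heterozygous libraries 1 and 2, against 2.04, 3.14, 1.79 and 1.25 CPM in controls 1 to 4.

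Pcdhb2 and Pcdhb22 had lower levels and a like difference. Pcdhb2 stood at 2.66 and 1.87 CPM in heterozygous libraries 1 and 2, against 1.05, 0.835, 0.817 and 1.499 CPM in controls 1 to 4, a log2 fold change of 1.11 ± 0.43 (SE). Pcdhb22 stood at 2.38 and 2.18 CPM in heterozygous libraries 1 and 2, against 1.45, 1.45, 0.906 and 1.12 CPM in controls 1 to 4, a log2 fold change of 0.89 ± 0.38 (SE). For both, the edgeR adjusted p was 0.85 and every control lay below both heterozygous libraries.

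Among the remaining 3 that did not overlap, Pcdhb16 stood at 2.45 and 1.87 CPM in heterozygous libraries 1 and 2, against 1.74, 0.918, 0.574 and 0.962 CPM in controls 1 to 4 (log2 fold change 1.04 ± 0.50, SE). Pcdhb18 stood at 1.53 and 1.48 CPM in heterozygous libraries, against 0.375, 1.11, 0.574 and 0.738 CPM in controls (1.11 ± 0.54). Pcdhb21 stood at 1.25 and 0.813 CPM in heterozygous libraries, against 0.482, 0.668, 0.376 and 0.134 CPM in controls (1.31 ± 0.74). Their edgeR adjusted p was 0.86, 0.876 and 0.907. Pcdhb21 and Pcdhb22 overlap at their ends in GENCODE M21, and Pcdhb17 and Pcdhb18 lie 10 bases apart, so reads at those ends could count for either gene.

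Pcdhb6 had the largest log2 fold change of the cluster, 1.51 ± 0.78 (SE; edgeR, adjusted p = 0.891), which rested on a single library. It stood at 3.56 and 0.956 CPM in heterozygous libraries 1 and 2, against 0.563, 0.751, 0.221 and 1.61 CPM in controls 1 to 4, from 151 and 47 reads in heterozygous libraries. Control 4 lay above heterozygous library 2, and without heterozygous library 1 and control 2 the log2 fold change was 0.26. Pcdhb19 and Pcdhb20 were likewise high in heterozygous library 1 alone, at 3.79 and 4.01 CPM there, and at 1.30 and 1.28 CPM in heterozygous library 2, within the controls at 1.25 to 2.31 and 0.94 to 2.73 CPM. Pcdhb6, Pcdhb19 and Pcdhb20 were picked out after their values were seen.

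Levels differed along the cluster. Per kilobase of exon, mean levels over the 6 libraries ran from 0.0494 CPM per kb for Pcdhb12 to 0.954 CPM per kb for Pcdhb7. Split after the values were seen, the 6 genes from Pcdhb2 to Pcdhb7 had a median of 0.572 CPM per kb, the 7 from Pcdhb8 to Pcdhb15 one of 0.115, and the 7 from Pcdhb16 to Pcdhb22 one of 0.272. The log2 fold change was above 0 in 5 of 6, 3 of 7 and 7 of 7 members of these runs. Summed over Pcdhb2 to Pcdhb7, the level was 21.3 and 14.9 CPM in heterozygous libraries 1 and 2, against 7.51 to 13.8 CPM in controls, so that both heterozygous libraries lay above every control. Over the middle run it was 4.01 and 2.34 CPM in heterozygous libraries 1 and 2, against 2.82 to 5.31 CPM in controls, so the groups overlapped. For the run from Pcdhb16 to Pcdhb22 it was 23.9 and 13.1 CPM in heterozygous libraries, against 6.22 to 13.2 CPM in controls. Control 2 was the control just above heterozygous library 2 there.

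The lowest beta genes carried too few reads to compare. Pcdhb12 had 7 and 0 reads in heterozygous libraries 1 and 2, against 1 to 12 in controls, and Pcdhb11 had 23 and 17 against 3 to 22. For Pcdhb12, the 0 in heterozygous library 2 allows a level of up to 0.061 CPM (3 counts, counting error only). That is below controls 2, 3 and 4 at 0.306, 0.133 and 0.268 CPM, but above control 1 at 0.0268 CPM. Heterozygous library 1, at 0.165 CPM, lay within the controls, so the groups overlapped and no difference in Pcdhb12 could be told at these counts.

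**Figure D3:**
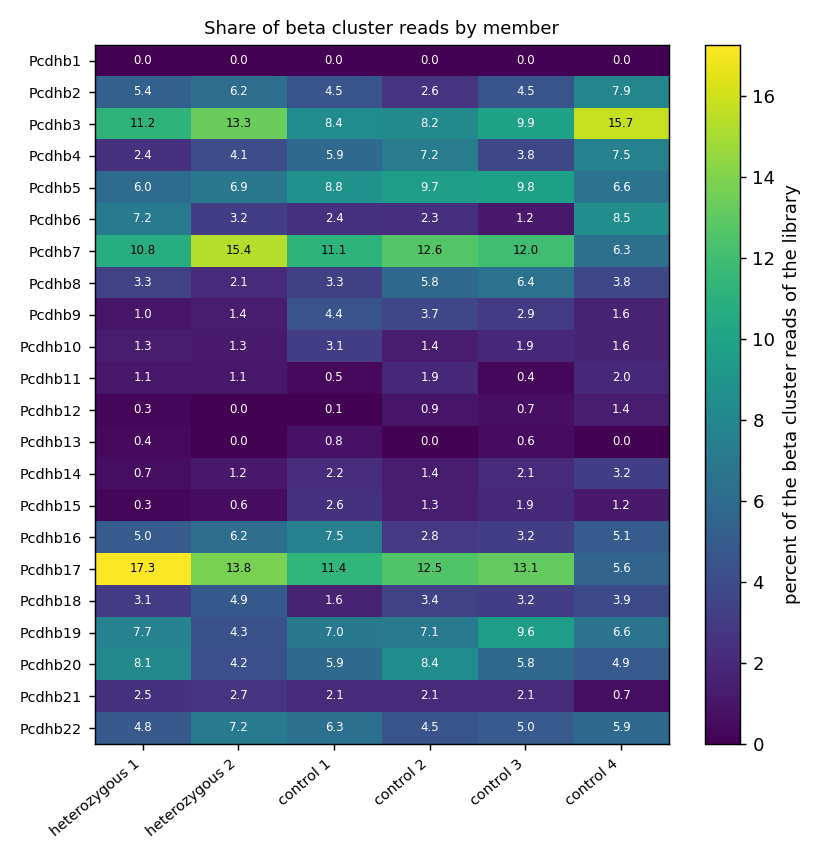
Share of each beta gene in the reads of the whole beta cluster, in percent, by library, with the heterozygous libraries in the left columns. Pcdhb7 and Pcdhb17 are among the largest shares in 5 libraries, while control 4 differs, with 15.7% for Pcdhb3 and 5.64% for Pcdhb17.

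Pcdhb7 and Pcdhb17 were among the 3 members with the largest shares in every library but control 4. Pcdhb17 took 17.3 and 13.8% of beta reads in heterozygous libraries 1 and 2, against 11.4, 12.5, 13.1 and 5.64% in controls 1 to 4. The Wilson 95% interval in control 4 was 4.28 to 7.40%, counting error only, and the shares of Pcdhb17 in the 5 remaining libraries lay above it. Pcdhb3 took 11.2 and 13.3% in heterozygous libraries, against 8.36, 8.25, 9.94 and 15.7% in controls 1 to 4. In each library 5 or 6 members were enough to reach 50% of the beta reads, and 18 to 20 members had at least 10 reads. Between the highest and the lowest library, beta genes differed by a median of 3.57-fold (19 genes with reads in all), against 1.89-fold for 10 non-clustered genes, whose counts were higher.

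The non-clustered genes showed no common direction. The log2 fold change was positive in 5 of 12, the median was -0.22, and 0 had both heterozygous libraries outside the controls on either side (6.17% of all genes above and 8.14% below). Their summed level was 281 and 330 CPM in heterozygous libraries 1 and 2, against 352, 267, 287 and 297 CPM in controls 1 to 4. Per kilobase of exon, Pcdh18 was the highest at a mean of 9.60 CPM per kb over the 6 libraries, followed by Pcdh8 at 6.66, Pcdh19 at 5.17, Pcdh10 at 3.70, Pcdh1 at 3.49 and Pcdh17 at 3.38 CPM per kb. This order depends on the exon length used. Without it, Pcdh10 and Pcdh19, at means of 58.9 and 54.1 CPM, stood above Pcdh18 at 51.5 CPM. The highest beta gene, Pcdhb7, had a mean of 0.954 CPM per kb.

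**Figure D4:**
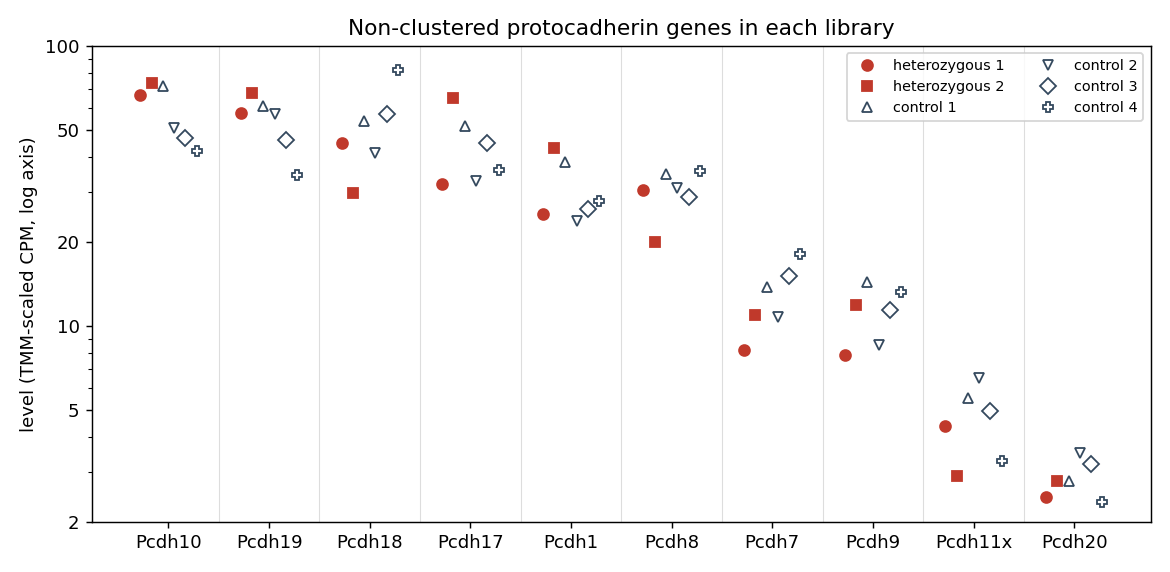
Level of 10 non-clustered protocadherin genes in CPM (log axis), ordered by their mean, with filled red symbols for the 2 heterozygous libraries and open symbols for the 4 controls. Pcdh10 and Pcdh19 are highest in heterozygous library 2 and lowest in control 4, and Pcdh18 is lowest in heterozygous library 2 and highest in control 4; Pcdh12 and Pcdh15, which have libraries at 0, are not drawn.

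Pcdh10, Pcdh17 and Pcdh19 are delta2 protocadherins whose cytoplasmic tails bind the WAVE actin regulator. Pcdh19 lies on chromosome X, and its human gene is mutated in an epilepsy that affects heterozygous females. Pcdh10 stood at 67.1 and 74.03 CPM in heterozygous libraries 1 and 2, against 71.9, 51.0, 47.1 and 42.1 CPM in controls 1 to 4. Control 1 stood between the heterozygous libraries, and the log2 fold change of Pcdh10 was 0.41 ± 0.23 (SE; edgeR, adjusted p = 0.905). Pcdh19 stood at 57.8 and 67.8 CPM in heterozygous libraries 1 and 2, against 61.2, 57.0, 46.3 and 34.7 CPM in controls 1 to 4. Its groups overlapped through control 1, and the 2 libraries without Y-linked reads, heterozygous library 1 and control 2, were nearly equal. Pcdh17 stood at 32.2 and 65.3 CPM in heterozygous libraries 1 and 2, on either side of the controls at 51.9, 33.1, 45.01 and 36.1 CPM. Heterozygous library 2, the highest for Pcdh10, Pcdh17, Pcdh19 and the gamma row, was also the highest in the sum of the MGE markers and in that of the neuron markers, whose part in these levels was not tested.

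Pcdh18, another delta2 protocadherin, was lowest in heterozygous library 2 and highest in control 4, the libraries at the opposite ends for Pcdh10 and Pcdh19. It stood at 44.9 and 29.8 CPM in heterozygous libraries 1 and 2, against 54.1, 41.4, 56.9 and 81.9 CPM in controls 1 to 4. Control 2 was lower than heterozygous library 1, so the groups overlapped. The log2 fold change of Pcdh18 was -0.65 ± 0.30 (SE; edgeR, adjusted p = 0.85), 0.12 for heterozygous library 1 against control 2 and -1.08 for heterozygous library 2 against controls 1, 3 and 4. The 6 mesenchymal markers summed to 189 and 75.9 CPM in heterozygous libraries 1 and 2, against 113 to 194 CPM in controls. Their sum was also lowest in heterozygous library 2 and highest in control 4, with heterozygous library 1 close to it. Of the 6, only Col1a2 was highest in control 4, at 80.1 CPM. Col1a1, Col3a1, Prrx1 and Twist1 were highest in heterozygous library 1, and Pdgfra was lowest in control 4, at 8.72 CPM. The part of these 6 markers in the level of Pcdh18 was not tested.

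Pcdh8, a delta2 protocadherin that is induced by activity in neurons, stood at 30.6 and 19.9 CPM in heterozygous libraries 1 and 2, against 34.9, 31.1, 28.9 and 35.9 CPM in controls 1 to 4. Heterozygous library 2 alone lay below the controls. Pcdh20 stood at 2.45 and 2.79 CPM in heterozygous libraries, against 2.79, 3.51, 3.23 and 2.35 CPM in controls, with the groups overlapping.

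The delta1 group, Pcdh1, Pcdh7, Pcdh9 and Pcdh11x, carries a tail motif that binds protein phosphatase 1. Pcdh7 had the smallest p of the non-clustered genes. It stood at 8.2 and 10.9 CPM in heterozygous libraries 1 and 2, against 13.7, 10.8, 15.1 and 18.1 CPM in controls 1 to 4. Heterozygous library 2 was just above control 2, and the log2 fold change of Pcdh7 was -0.60 ± 0.26 (SE; edgeR, unadjusted p = 0.0524, adjusted p = 0.85). Pcdh1 stood at 25.2 and 43.3 CPM in heterozygous libraries, against 38.4, 23.7, 26.1 and 27.8 CPM in controls. Pcdh9 stood at 7.89 and 11.9 CPM in heterozygous libraries, against 14.4, 8.57, 11.4 and 13.2 CPM in controls. Pcdh11x, on chromosome X, stood at 4.41 and 2.91 CPM in heterozygous libraries, against 5.52, 6.54, 4.97 and 3.29 CPM in controls. In each of these 3 the groups overlapped.

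Pcdh12 was near the floor, and Pcdh15 had a library with 0 reads. Pcdh12, a protocadherin of endothelial cells, had 18 and 0 reads in heterozygous libraries 1 and 2, against 1, 0, 20 and 3 reads in controls 1 to 4. The endothelial cadherin gene Cdh5 stood at 1.44 and 0.244 CPM in heterozygous libraries 1 and 2, against 0.697, 0.111, 1.83 and 0.85 CPM in controls 1 to 4, with heterozygous library 1 and control 3 the highest, as for Pcdh12. Tek, Pecam1, Tie1, Cldn5, Emcn and Kdr were highest in control 4, where Pcdh12 had 3 reads. Kdr stood at 5.14 and 6.53 CPM in heterozygous libraries 1 and 2, against 9.43, 4.79, 6.67 and 17.2 CPM in controls 1 to 4. Esam, Egfl7 and Flt1 were highest in heterozygous library 1, at 0.778, 3.79 and 0.495 CPM. Summed over 10 endothelial markers the level was 14.0 and 9.21 CPM in heterozygous libraries, against 7.82 to 29.9 CPM in controls, control 4 being the highest, with 5 of the 10 under 1 CPM in every library. Their part in the level of Pcdh12 was not tested. Pcdh15, a protocadherin of the hair-cell tip link, had 0 reads in heterozygous library 1 and 96 in library 2, against 108, 22, 86 and 52 in controls 1 to 4. The 0 allows up to 0.0707 CPM, and the lowest control, the other library without Y-linked reads, stood at 0.612 CPM.

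The start regions of members that the levels turn on are shown because Pcdh10, Pcdh17 and Pcdh19 were highest in heterozygous library 2 while Pcdh18 and Pcdh8 were lowest there. They are the 250 bases before the start in the RefSeq table (GRCm38.p6). Windows were used for 9 of the non-clustered members (Pcdh7, Pcdh8, Pcdh9, Pcdh10, Pcdh15, Pcdh17, Pcdh18, Pcdh19 and Pcdh20). The clustered members, Pcdh1 and Pcdh12 were excluded by their location, so the motif counts cover these 9 alone. Pcdh1, also highest in heterozygous library 2, and Pcdh11x, also lowest there, are therefore not shown or not among the 9. Each region shown runs 5′ to 3′ on the gene's strand in lower case. Capitals mark matches to CCAAT, the box bound by NF-Y, and to TATAAA, the TATA box, on either strand.

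Pcdh10 start region, chr3:45378148-45378397, plus strand: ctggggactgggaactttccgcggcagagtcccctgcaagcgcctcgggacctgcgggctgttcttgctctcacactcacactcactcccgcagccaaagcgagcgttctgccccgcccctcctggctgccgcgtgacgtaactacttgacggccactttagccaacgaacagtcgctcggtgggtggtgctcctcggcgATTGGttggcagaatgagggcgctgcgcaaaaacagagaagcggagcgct

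Pcdh17 start region, chr14:84443313-84443562, plus strand: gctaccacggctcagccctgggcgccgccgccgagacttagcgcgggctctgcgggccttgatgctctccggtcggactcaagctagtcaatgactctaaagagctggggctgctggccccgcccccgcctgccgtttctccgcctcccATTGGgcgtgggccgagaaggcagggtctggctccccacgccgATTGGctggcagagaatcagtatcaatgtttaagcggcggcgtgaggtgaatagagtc

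Pcdh19 start region, chrX:133688994-133689243, minus strand: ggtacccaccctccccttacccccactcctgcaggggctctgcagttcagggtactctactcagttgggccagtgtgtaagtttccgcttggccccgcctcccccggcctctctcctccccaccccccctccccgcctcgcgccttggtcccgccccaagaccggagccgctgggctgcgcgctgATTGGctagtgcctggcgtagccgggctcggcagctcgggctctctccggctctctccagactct

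Pcdh18 start region, chr3:49757317-49757566, minus strand: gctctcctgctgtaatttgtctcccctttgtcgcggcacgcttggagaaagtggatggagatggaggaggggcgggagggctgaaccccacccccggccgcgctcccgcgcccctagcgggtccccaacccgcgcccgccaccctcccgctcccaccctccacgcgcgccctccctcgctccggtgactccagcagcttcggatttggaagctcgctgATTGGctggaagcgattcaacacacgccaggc

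Pcdh8 start region, chr14:79771313-79771562, minus strand: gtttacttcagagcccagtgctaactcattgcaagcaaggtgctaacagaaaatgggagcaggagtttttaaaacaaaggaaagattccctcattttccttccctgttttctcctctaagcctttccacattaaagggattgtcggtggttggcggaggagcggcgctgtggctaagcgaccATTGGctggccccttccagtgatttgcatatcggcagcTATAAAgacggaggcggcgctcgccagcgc

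All 5 held CCAAT, chosen as a motif after the sequences were read. The start of the match nearest to the gene lay 50 bases before the start site in Pcdh10, 58 in Pcdh17, 65 in Pcdh19, 32 in Pcdh18 and 68 in Pcdh8. It was found in 8 of these 9 members, Pcdh7 being the exception, where 33.8% of 32851 windows of the same length did. TATAAA was in 2 of 9, Pcdh8 and Pcdh15, at 30 and 33 bases before the start, where 12.4% of windows held it. The Pcdh15 window, chr10:73821617-73821866, lies inside the gene as GENCODE M21 draws it, from 73099342 on the plus strand. All Pcdh15 matches given here therefore belong to a start within the gene. CG dinucleotides numbered 22 in Pcdh10, 21 in Pcdh17, 16 in Pcdh19, 23 in Pcdh18 and 11 in Pcdh8, against a median of 6 over all windows. CAAGTG, an NKX2 core, and TAATTA, a homeodomain core, were in none of the 9 windows, where 11.6% and 4.84% of all windows held them. CANNTG, the E-box, was in Pcdh15 and Pcdh19 (66.2% of all windows), and a CTCF core motif was in Pcdh15 (2.93% of all windows). A match is a description of letters and not a binding site, and CCAAT shares no bases with TATAAA in these windows.

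**Figure D5:**
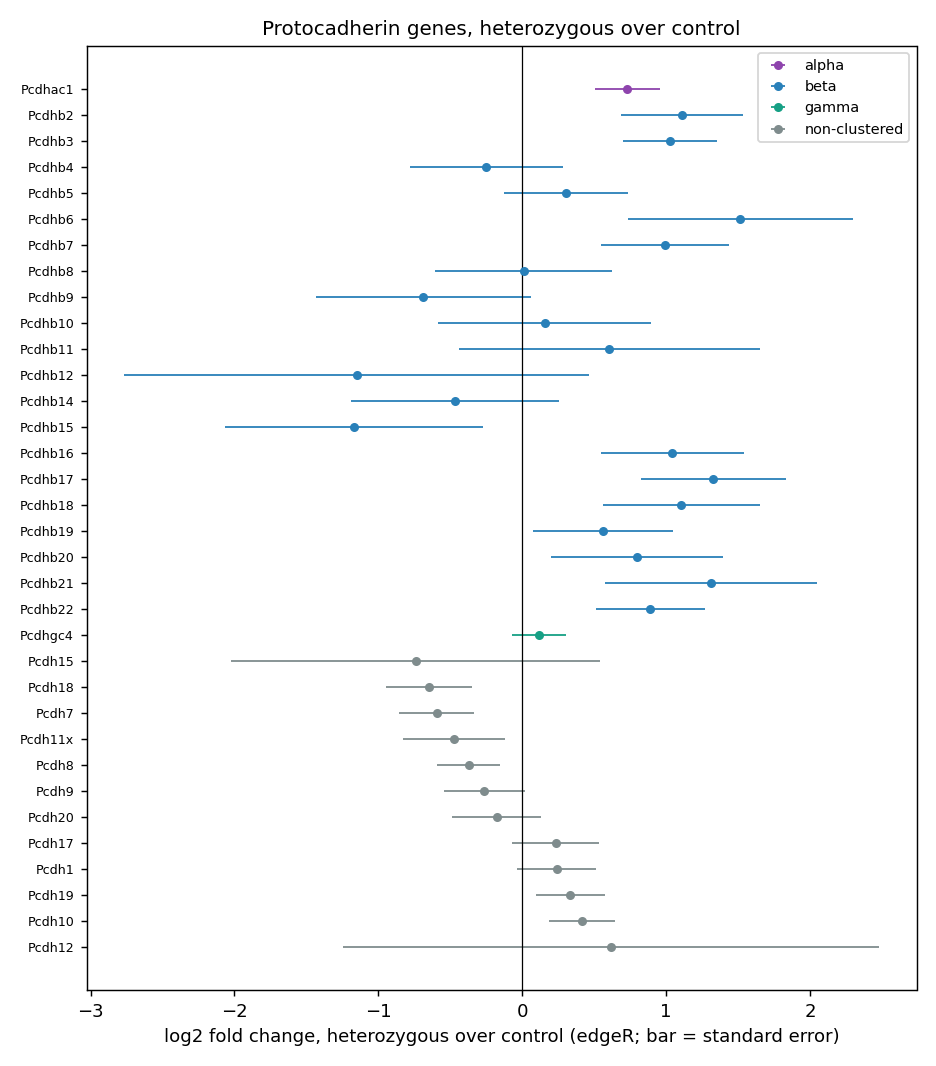
Log2 fold change of all 34 protocadherin rows, heterozygous over control, with standard errors from edgeR (horizontal axis). The alpha row, the gamma row and 15 of 20 beta genes lie above 0, all members from Pcdhb16 to Pcdhb22 among them. The non-clustered genes lie on both sides, and no row is past the test.

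Genes around the family were counted from lists. Of 21 genes that act on the clustered promoters (CTCF, cohesin and its loaders, DNA methyltransferases, and the repressors Smchd1, Setdb1 and Rest), 0 passed edgeR (0.0% of all genes), 0 passed DESeq2, and 1 was lower at an unadjusted p under 0.05 (3.98% of all genes). Their median log2 fold change was -0.14 against -0.03 for all genes. Within the sets, their median was 0.25 for heterozygous library 1 against control 2. It was -0.17 for heterozygous library 2 against the controls with Y-linked reads. The sign of this median thus differed between the sets. By the smallest p, the first was Smchd1, a repressor of the clusters, at 72.4 and 90.7 CPM in heterozygous libraries 1 and 2, against 149, 82.4, 155 and 140 CPM in controls 1 to 4. Control 2, with the fewest long transcripts, lay between the heterozygous libraries. Rest, a repressor of neuronal genes that also binds a clustered enhancer, stood at 9.52 and 8.74 CPM in heterozygous libraries, against 21.5, 5.70, 24.2 and 28.1 CPM in controls, with control 2 the lowest of all 6. Their log2 fold changes were -0.69 ± 0.28 for Smchd1 and -1.12 ± 0.55 for Rest (SE). Stag2, a cohesin subunit, stood at 116 and 105 CPM in heterozygous libraries, below all controls at 120 to 147 CPM.

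Of 24 genes of protocadherin signalling and processing, among them the WAVE complex, the focal adhesion kinases and the proteases that cleave the proteins, 0 passed edgeR or DESeq2 and 0 had an unadjusted edgeR p under 0.05, and the median log2 fold change was 0.01. Nlgn1, a synaptic partner of gamma protocadherins, stood at 7.66 and 7.14 CPM in heterozygous libraries, above all controls at 2.84 to 6.16 CPM. Wasf3, of the WAVE family, stood at 47.9 and 50.9 CPM, below all controls at 53.7 to 62.4 CPM. Wasf2 stood at 48.2 and 50.7 CPM, against 47.6 to 76.2 CPM in controls.

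Of 34 tested genes of the remaining cadherin superfamily, 0 passed edgeR or DESeq2, and 2 were higher and 5 lower at an unadjusted edgeR p under 0.05 (1.75% and 3.98% of all genes). The log2 fold change was negative in 26 and positive in 8, where 46.1% of all tested genes were positive. Its median was -0.30. Within the sets, the median was 0.14 for heterozygous library 1 against control 2, and -0.35 for heterozygous library 2 against controls 1, 3 and 4. The sign thus differed between the sets. Cdh1, the epithelial cadherin, stood at 3.04 and 3.11 CPM in heterozygous libraries 1 and 2, against 5.74, 5.20, 8.09 and 6.398 CPM in controls 1 to 4. Cdh10 stood at 6.10 and 5.29 CPM, below all controls at 8.07 to 10.4 CPM, and Cdh19, a cadherin of neural crest glia, at 0.518 and 0.305 CPM, below all controls at 0.858 to 3.20 CPM. For Cdh1 the edgeR adjusted p was 0.793, for Cdh10 0.81 and for Cdh19 0.833. The 2 higher genes, named after their values were seen, were Cdh8 and Cdh18. Cdh8 stood at 20.3 and 13.3 CPM in heterozygous libraries 1 and 2, against 9.82 to 11.497 CPM in controls (edgeR, adjusted p = 0.833), and Cdh18 at 0.919 and 0.874 CPM, against 0.139 to 0.375 CPM in controls (adjusted p = 0.841).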

How the data were processed

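RNA was sequenced from 6 samples. Per the labels' protocols, sorted cells were lysed directly for RNA purification, and a NuGEN mRNA-Seq kit was used. Build mm10 and the tools HTSeq, STAR and Trim Galore are named, per the submitters' processing notes. The sources used here do not give the annotation, strandedness or counting rules. The authors deposited raw read counts for 38561 genes and a second table of normalized values (a signal, counts divided by 1 factor per library) for 18065 genes with at least 10 reads in a library, which was checked against the counts. Of the gene IDs, 36639 matched GENCODE M21, used for coordinates and exon length. Exon length covers the merged exons of all transcripts of a gene.

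The raw counts were tested with edgeR 4.0.16 in R 4.3.3 (filterByExpr, TMM, robust glmQLFit, glmQLFTest, two-sided), which kept 16495 genes, with Benjamini-Hochberg adjustment over all of them and a threshold of 0.05. A standard error is the size of the log2 fold change over the root of its F statistic. Within-pair differences are of log2 CPM with a prior count of 2. The smallest p that exact permutation of 6 labels allows here is 0.0667, so no such test is given. Intervals and floors cover counting error only, since the reads carry no molecular identifiers.

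Alternatives were DESeq2 1.42.0, limma 3.58.1 (voom, and trend on log2 of the normalized values plus 1), RLE and upper-quartile scaling, no filter or a mean of 1 CPM, removal of loess trends (span 0.5) on length and GC, not for the alpha and gamma rows, leaving out libraries and, added after seeing the data, edgeR fits with a block. The scripts were tested on simulated counts. Members and lists were chosen with earlier results of these data known. Fold changes are given for members averaging 0.5 CPM or more and either an unadjusted p under 0.05 or heterozygous libraries outside the controls, for the 2 smallest p in each group, and for Pcdhb6, Pcdh10 and others named after their values were seen; levels are given for the 4 most abundant beta genes and for non-clustered genes of at least 1 CPM.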

Additional observations from a re-analysis of the deposited data

Results flagged for a closer look

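Pcdh12 stood at 0.442 CPM in control 3, far from the other 3 controls at 0 to 0.0671 CPM, which flagged it. The heterozygous libraries held 0.424 and 0 CPM. It was the only one of 36 sets of control values with such a gap, a smaller share than the about 1 in 20 that chance gives. The value in control 3 rests on 20 reads.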

How the results depend on the processing

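Over the 15 alternatives, no protocadherin row was called. For the 12 members whose fold change the naming rule takes, 175 of 176 alternative values kept their sign and stayed short of the threshold (adjusted p from 0.17 to 1.0); the exception was Pcdhgc4, at -0.076 without heterozygous library 2, with a range of -0.076 to 0.29. DESeq2 called 75 genes over the table and edgeR 0. The beta median log2 fold change (0.70) was 0.29 without control 2 and heterozygous library 1 together and 0.15 to 1.01 with a single library left out. The ratio of beta sums (1.72) was 1.18 relative to the neuron markers and 1.31 to 2.13 with a library left out. The ratio of non-clustered sums (1.02) was 0.665 relative to the neuron markers and 0.934 to 1.10 with a library left out, and below 1 without heterozygous library 2 or without control 2 (0.98). The alternatives for the sums were chosen after seeing the data. The cause of these shifts was not tested. Where a heterozygous library is left out, the lone one is assumed to vary like the controls. The number of reads limits the beta genes, at 0 to 362 per gene and library. Blocks were added after seeing the data. With the code number as a block (1 shared number, 1 residual degree of freedom), 11 genes were called over the table, 0 of them protocadherins, and the beta median was 0.072. With a block on libraries with or without Y-linked reads (3 residual degrees of freedom), 0 were called and the beta median was 0.41. No named member changed sign under either block.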
